A study of Mus musculus with 12 samples.

Results

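Wnt1, Wnt3a, Wnt8b and Wnt10b are the 4 secreted Wnt ligands described here, named for their expression along the dorsal side of the neural tube. They were chosen by name from tables of genes the authors had selected, and with their changes already known, so their values in both experiments are a description and carry no test. All 4 have a row among the 546 genes of the co-culture table, which holds 11 Wnt ligands in all. Wnt1, Wnt8b and Wnt10b have a row among the 633 genes of the cocktail table, which holds 4 Wnt ligands. Across both tables the ligands make up 4 of 1113 genes. Wnt3a was not analysed here in the cocktail experiment.

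Wnt proteins are lipid-modified signals that act over short distances. They bind Frizzled receptors with Lrp5 or Lrp6, and in the canonical branch this stabilises beta-catenin, which joins Tcf/Lef factors on target genes such as Axin2. In the mouse embryo the roof plate and dorsal midline of the neural tube express Wnt1 and Wnt3a, which support growth of the dorsal progenitors. Wnt1 also marks the midbrain side of the midbrain-hindbrain boundary. Wnt8b is known from the dorsal forebrain, including the cortical hem and hippocampal primordium. Wnt10b is best known for roles in bone, fat and mammary tissue, and is also expressed in the dorsal neural tube.

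The study sequenced poly(A) RNA of aggregates made from mESC 129w2, a mouse embryonic stem cell line, in 12 libraries forming 4 groups of 3. In the co-culture experiment, aggregates cultured with mSMGs (not spelled out in the labels) from day 5 to day 7 were compared with D7 aggregates. In the cocktail experiment, aggregates given cocktail factors were compared with their own D7 aggregates, to ask whether factors could take the place of co-culture. The sources used here give neither what the cocktail held nor the day on which those libraries were collected, so cocktail and stage cannot be told apart. Every group, controls included, was started at 3000 cells per well in serum-free medium with Matrigel, given BMP4 at 2 ng/ml on day 3, then bFGF at 25 ng/ml and retinoic acid at 1 µM on day 4, and moved to new plates on day 5. All libraries therefore come from 1 cell line already exposed to BMP4 and retinoic acid. RNA was extracted from whole aggregates, so fewer cells expressing a gene and less RNA of it per cell cannot be told apart. The labels do not say whether libraries of a group came from separate cultures.

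Levels are in FPKM, which counts fragments per kilobase of a transcript and scales them to the library, and so is a level per transcript length. For the co-culture table the unit is inferred, since its header names none. Sequencing depth was not analysed here. In the co-culture experiment the co-culture libraries differed among themselves. Over all 546 co-culture genes, co-culture replicate 2 correlated with the 3 controls at 0.681 to 0.721 (log2 scale, Pearson r across genes, given as a description). By the same measure, co-culture replicate 2 correlated with co-culture replicate 1 at 0.911. Co-culture replicate 3 correlated with the 3 controls at 0.942 to 0.965, with co-culture replicate 1 at 0.867 and with co-culture replicate 2 at 0.748. Replicate 3 was thus nearer to the controls than to its own group. Results that rest on co-culture replicate 2 are given with and without it. Both tables hold genes selected by the authors: 100% of the 633 cocktail genes pass limma's test at a Benjamini-Hochberg adjusted p under 0.05. Fitted differences are on the log2(FPKM + 1) scale, on which the changes of genes with low FPKM look smaller than they are.

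Wnt1 and Wnt10b are neighbours on mouse chromosome 15 (GRCm38, GENCODE M21). Wnt1 (ENSMUSG00000022997) spans chr15:98789857-98793837 on the plus strand. Wnt10b (ENSMUSG00000022996) spans chr15:98770712-98778150 on the minus strand. The genes point away from each other, with their starts 11707 bases apart and 0 annotated genes between them. Wnt3a (ENSMUSG00000009900) lies at chr11:59248033-59290752 on the minus strand, and Wnt8b (ENSMUSG00000036961) at chr19:44493472-44514273 on the plus strand.

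The 250 bases before each gene's RefSeq start (GRCm38.p6) are shown so that the starts can be compared by sequence. They lie at chr15:98789607-98789856 (plus strand) for Wnt1, chr15:98778151-98778400 (minus strand) for Wnt10b, chr11:59290752-59291001 (minus strand) for Wnt3a and chr19:44493222-44493471 (plus strand) for Wnt8b. Each runs 5′ to 3′ on the gene's own strand, and capitals mark the motif matches described after them.
Wnt1: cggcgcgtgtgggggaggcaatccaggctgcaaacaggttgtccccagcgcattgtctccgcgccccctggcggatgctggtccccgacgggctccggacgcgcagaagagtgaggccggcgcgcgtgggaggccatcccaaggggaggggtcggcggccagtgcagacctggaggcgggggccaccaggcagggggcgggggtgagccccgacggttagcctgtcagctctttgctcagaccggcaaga
Wnt10b: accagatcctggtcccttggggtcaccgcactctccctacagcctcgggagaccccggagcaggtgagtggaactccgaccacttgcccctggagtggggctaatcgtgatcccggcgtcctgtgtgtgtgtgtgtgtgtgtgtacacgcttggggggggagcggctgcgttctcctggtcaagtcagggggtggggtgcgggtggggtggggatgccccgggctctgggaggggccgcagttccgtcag
Wnt3a: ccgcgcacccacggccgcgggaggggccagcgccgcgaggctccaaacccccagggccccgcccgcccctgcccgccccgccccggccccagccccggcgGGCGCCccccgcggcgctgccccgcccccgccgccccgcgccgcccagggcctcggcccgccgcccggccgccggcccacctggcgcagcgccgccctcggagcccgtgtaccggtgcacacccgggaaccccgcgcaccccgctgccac
Wnt8b: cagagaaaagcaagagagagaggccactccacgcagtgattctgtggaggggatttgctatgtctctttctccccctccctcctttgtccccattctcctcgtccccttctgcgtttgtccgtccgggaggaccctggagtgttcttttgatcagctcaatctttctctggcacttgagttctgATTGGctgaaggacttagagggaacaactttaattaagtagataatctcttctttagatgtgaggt

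The 4 windows differ most in base composition. The GC content was 71.6% for Wnt1, 66.8% for Wnt10b, 87.6% for Wnt3a and 48.4% for Wnt8b, against a median of 52.4% over 32851 RefSeq windows of the same length. Wnt8b was thus the only one of the 4 below that median. Both strands were searched for 5 short motifs: the Tcf/Lef core (CTTTGA), the STAT core (TTCNNNGAA), the GC-rich Smad element (GGCGCC), the CCAAT box (CCAAT) and the TATA box (TATAAA). Wnt3a held the Smad element once, at positions -150 to -145 from its start, a motif found in 9.59% of all windows. Wnt8b held the CCAAT box once on the opposite strand (ATTGG), at positions -66 to -62, a motif found in 33.8% of all windows. None of the 4 windows held the Tcf/Lef core (13.8% of all windows), the STAT core (7.02%) or the TATA box (12.4%). These are matches of letters within these windows only. Whether base composition or motifs bear on the levels of the ligands was not tested.

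Of the 4 ligands described here, Wnt1 was the most abundant of those with a row in every library of both experiments. In the cocktail libraries it stood at 26.7, 28.6 and 23.6 FPKM, against 99.7, 95.7 and 93.2 FPKM in the controls. All 3 cocktail libraries lay far below all 3 controls, and the groups did not overlap. The means were 26.3 ± 2.54 FPKM with cocktail and 96.2 ± 3.28 FPKM in controls (SD, n = 3 each), a level 3.65-fold higher in controls. The log2(FPKM + 1) difference was -1.83, and the authors' deposited table gives a log2 fold change of -1.84. Among the 633 genes of the table, Wnt1 ranked 61st by mean FPKM in the cocktail libraries and 4th in the controls.

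Wnt10b, the chromosomal neighbour of Wnt1, was lower with cocktail as well, at a far lower level. It stood at 1.41, 1.62 and 1.41 FPKM in the cocktail libraries, against 4.52, 3.14 and 3.09 FPKM in the controls. The groups did not overlap, and control library 1 was higher than the other controls. The means were 1.48 ± 0.122 FPKM with cocktail and 3.58 ± 0.811 FPKM in controls (SD, n = 3 each), a level 2.42-fold higher in controls. The log2(FPKM + 1) difference was -0.87, and the authors' deposited table gives a log2 fold change of -1.22.

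Wnt8b went the other way. It stood at 0.906, 1.04 and 0.939 FPKM in the cocktail libraries, against 0.407, 0.524 and 0.516 FPKM in the controls. Every cocktail library was above every control. The means were 0.960 ± 0.067 FPKM with cocktail and 0.483 ± 0.065 FPKM in controls (SD, n = 3 each), 1.99-fold higher with cocktail. The log2(FPKM + 1) difference was 0.40 (the authors' deposited table gives a log2 fold change of 1.03), but it was -0.36 when the FPKM of each library were scaled to the sum of the table. That sum was 11226 to 11714 FPKM in the cocktail libraries and 3165 to 3434 FPKM in the controls. FPKM are already scaled to the library and the table holds only selected genes, so its sum is not a depth. This scaling therefore cannot decide the direction of Wnt8b or of other genes. Over all 633 genes the median log2(FPKM + 1) difference was 0.57. Relative to it, Wnt8b stood at -0.17, Wnt1 at -2.40 and Wnt10b at -1.44.

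That Wnt1 and Wnt10b were lower and did not overlap with their controls is read against the table itself, in which 42.7% of genes were lower with no overlap between the groups. For Wnt8b, the matching share of genes higher with no overlap was 57.2%. By limma, 42.7% of the genes were lower and 57.3% higher. The direction of a single gene is therefore common in this table, and since the table was selected on this contrast nothing more is read from these counts.

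The spread between replicates differed between the tables. The coefficient of variation of Wnt1 was 9.63% among cocktail libraries and 3.41% among their controls, against 85.5% among co-culture libraries and 14.8% among theirs. For Wnt8b it was 6.99% with cocktail and 13.5% in those controls, against 86.9% in co-culture and 4.91% in its controls. Wnt10b spread most in the co-culture experiment, by 116.8% in co-culture and 63.0% in controls.

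**Figure D1:**
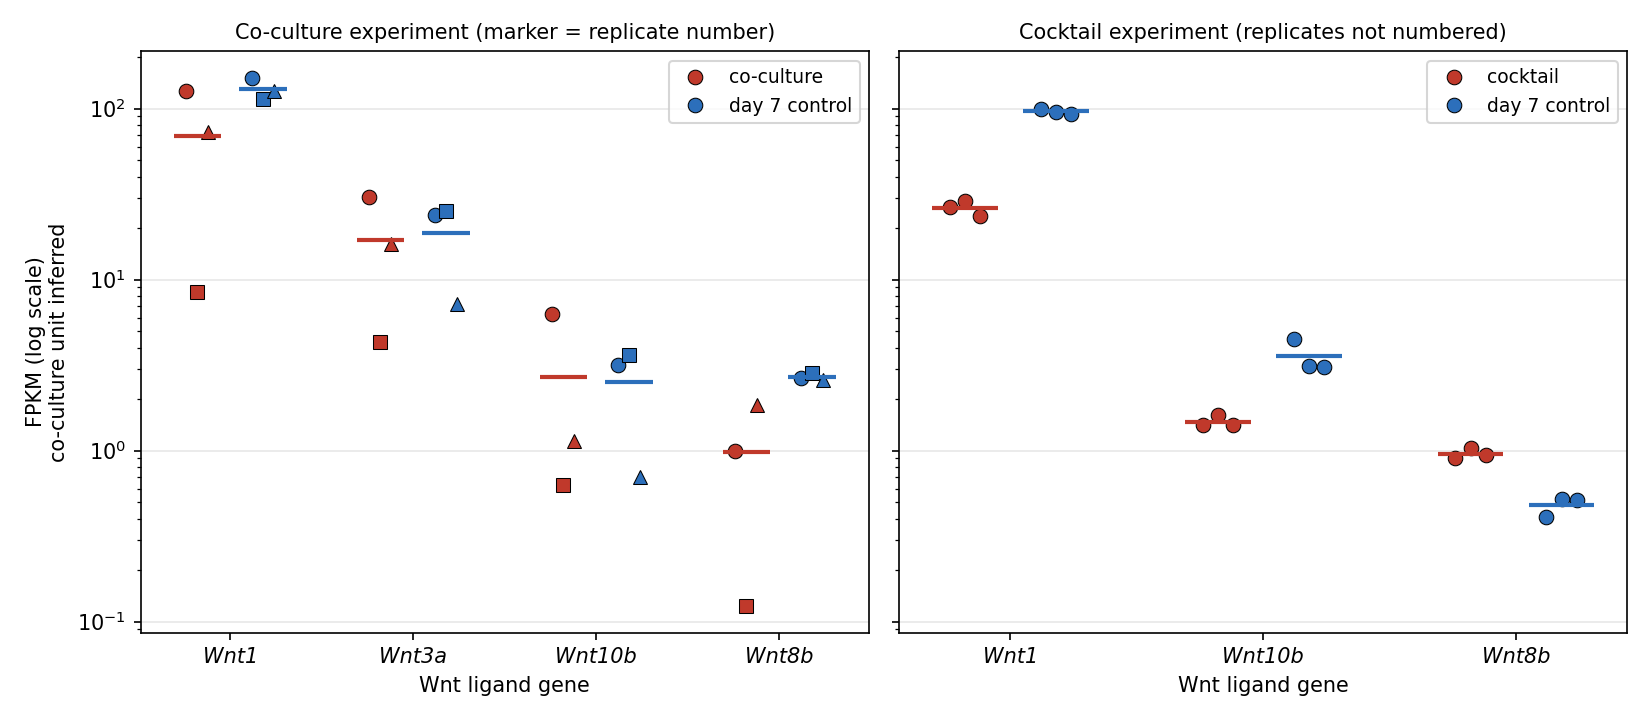
FPKM on a log axis for each ligand and library, in the co-culture experiment (left, marker shape giving the replicate number) and the cocktail experiment (right), with treated libraries in red left of their day 7 controls in blue and lines at the group means. Cocktail libraries lie below their controls for Wnt1 and Wnt10b and above them for Wnt8b (a direction that turns when FPKM are scaled to the table's sum), and co-culture replicate 2 (square) is the lowest library of all 4 ligands in the left panel.

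The plot of values by library shows the contrast with the co-culture experiment, where libraries of a group lay far apart. Wnt1 stood at 127.3, 8.47 and 72.8 FPKM in co-culture replicates 1, 2 and 3, against 151.2, 113.2 and 126.3 FPKM in control replicates 1, 2 and 3. The co-culture value was lower than the same-numbered control in all 3 pairs, but co-culture replicate 1 lay above 2 of the controls, so the groups overlap. Co-culture replicate 2 had 0.0748 of its control's level, replicate 3 had 0.577 and replicate 1 had 0.842. The means were 69.5 ± 59.5 FPKM in co-culture and 130.2 ± 19.3 FPKM in controls (SD, n = 3 each). On the log2(FPKM + 1) scale the mean difference was -1.54. It was -0.42 without co-culture replicate 2 and -1.90 without co-culture replicate 3.

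Wnt3a, the partner of Wnt1 in the dorsal midline, did not keep 1 direction. It stood at 30.4, 4.30 and 16.2 FPKM in co-culture replicates 1, 2 and 3, against 23.8, 25.0 and 7.21 FPKM in control replicates 1, 2 and 3. Co-culture was above its control in pairs 1 and 3 and below it in pair 2, with ratios of 1.28, 0.171 and 2.25 in pairs 1, 2 and 3. The mean log2(FPKM + 1) difference was -0.30 with all libraries, 0.42 without co-culture replicate 2 and -0.43 without co-culture replicate 3. The groups overlap.

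Wnt10b followed the pattern of Wnt3a. It stood at 6.31, 0.632 and 1.13 FPKM in co-culture replicates 1, 2 and 3, against 3.19, 3.63 and 0.702 FPKM in control replicates 1, 2 and 3. The ratios of co-culture to control were 1.98, 0.174 and 1.62, again with only pair 2 lower in co-culture. Its mean log2(FPKM + 1) difference of -0.12 turned positive when any of 4 single libraries was left out: 0.30 without co-culture replicate 2, 0.11 without co-culture replicate 3, 0.07 without control replicate 1 and 0.14 without control replicate 2. Both Wnt3a and Wnt10b were lowest among the controls in replicate 3.

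Wnt8b was lower in every co-culture library than in every control. It stood at 0.999, 0.123 and 1.84 FPKM in co-culture replicates 1, 2 and 3, against 2.68, 2.85 and 2.58 FPKM in control replicates 1, 2 and 3. The controls were close together, and the co-culture libraries spread over a wide range below them. The means were 0.986 ± 0.857 FPKM in co-culture and 2.70 ± 0.133 FPKM in controls (SD, n = 3 each). The mean log2(FPKM + 1) difference was -0.997, with -0.64 without co-culture replicate 2 and -1.30 without co-culture replicate 3. Wnt8b met the filter of a mean of 1 FPKM through its controls only. The other ligands passed it in both groups.

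Of the 4 ligands, Wnt8b alone had groups that did not overlap, against 4.58% of the 546 genes lower in co-culture with no overlap. Wnt1 and Wnt8b were lower in all 3 pairs, as were 12.1% of the genes. All 4 ligands had their lowest value of the 6 libraries in co-culture replicate 2, which held for 16.7% of the genes. The make-up of the table keeps these 3 shares low. For 390 of the 546 genes, co-culture exceeded control 2-fold or more in pairs 1 and 2, so they could not be counted in any share. Wnt8b, in turn, belonged to the 109 genes halved in those pairs. The shares therefore do not show how rare the ligands' patterns are, and nothing more is read from them. Over the 425 genes with a mean of at least 1 FPKM in either group, limma called 0% at a Benjamini-Hochberg adjusted p under 0.05 (86 had an unadjusted p under 0.05), and with the replicate number as a block it called 9.18%, 0.235% lower and 8.94% higher. The median log2(FPKM + 1) difference over those 425 genes was 0.83, in the opposite direction to Wnt1 and Wnt8b. The ligands were not tested, since they were chosen with these values known.

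The co-culture table can be split by pairs 1 and 2. In 390 genes the co-culture value was at least doubled in both pairs, in 109 it was at least halved in both, and 47 genes met neither rule. Wnt8b was among the 109 halved genes. The other 10 Wnt ligands were all among the 47, Wnt1, Wnt3a and Wnt10b included, and none was among the 390. The halved genes nearest the limit were Nt5c3b and Smad9, whose larger ratios were 0.4996 and 0.499, and the nearest outside it were Lrrc4 at 0.502 and Gm42742 at 0.505.

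Pair 3 did not enter that split. Of the 47 genes, Wnt1 had the lowest ratio of co-culture to control in pair 3 and the second lowest in pair 2, while it ranked 16th from the lowest in pair 1. Wnt3a ranked 33rd, 5th and 45th from the lowest in pairs 1, 2 and 3, and Wnt10b ranked 45th, 6th and 39th. The ranks in pairs 1 and 2 are among genes left by a split on those same pairs. Outside the 47 genes, lower ratios in pair 3 occurred: Ccdc65, a halved gene, stood at 0.439 against 0.577 for Wnt1. Ranks among all 546 genes are not reported here. In pair 3 the co-culture value was lower for 40.4% of the 47 genes, for 49.5% of the 109 halved genes and for 27.3% of all 546. Wnt1 and Wnt8b were lower in pair 3, with Wnt8b at a ratio of 0.711, and Wnt3a and Wnt10b were higher.

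**Figure D2:**
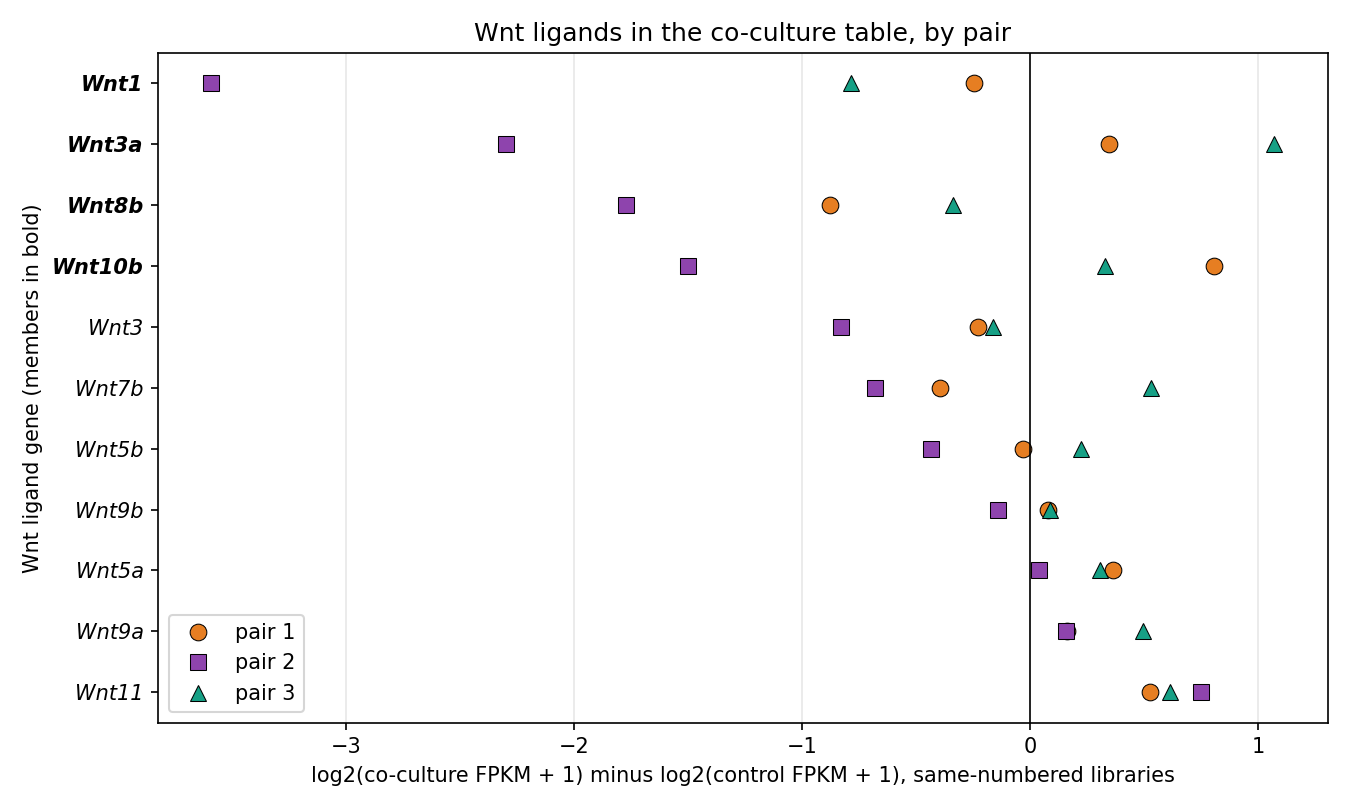
Difference in log2(FPKM + 1) between same-numbered co-culture and control libraries for the 11 Wnt ligands with a row, with pair 1 as circles, pair 2 as squares and pair 3 as triangles. Wnt1 and Wnt8b lie left of 0 in all 3 pairs (as does Wnt3), while Wnt3a and Wnt10b lie left of 0 in pair 2 only.

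The other Wnt ligands with a row give the setting, as the plot by pair shows. Wnt3, a close paralog of Wnt3a, was lower in co-culture in all 3 pairs, at 8.33, 2.07 and 7.10 FPKM in co-culture replicates 1, 2 and 3 and 9.93, 4.45 and 8.07 FPKM in their controls. Wnt9a stood at 24.5, 16.5 and 8.55 FPKM in co-culture and 21.9, 14.7 and 5.78 FPKM in controls, and was higher in every pair. So were Wnt5a, the ligand best known for non-canonical signalling (4.12, 2.31 and 3.64 FPKM in co-culture and 2.99, 2.22 and 2.76 FPKM in controls), and Wnt11 (1.61, 2.61 and 0.555 FPKM in co-culture and 0.819, 1.15 and 0.0169 FPKM in controls). In co-culture replicate 2, where the dorsal ligands had their lowest values, Wnt5a was still at 1.04 and Wnt9a at 1.12 of the control level. The low values there were not particular to the dorsal ligands, since Wnt3, Wnt5b and Wnt9b also had their lowest value in that library. The pair 2 ratios were 0.465 for Wnt3, 0.674 for Wnt5b, 0.579 for Wnt7b and 0.480 for Wnt9b. Wnt5b, Wnt7b and Wnt9b differed in direction between pairs.

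The make-up of the summed ligand level changed with that library. The 11 ligands together reached 211.3, 44.7 and 122.4 FPKM in co-culture replicates 1, 2 and 3, against 225.8, 179.9 and 161.0 FPKM in control replicates 1, 2 and 3. The 4 dorsal ligands made up 78.1%, 30.3% and 75.2% of it in co-culture and 80.1%, 80.4% and 84.96% in controls. Wnt1 alone made up 60.3%, 19.0% and 59.5% in co-culture and 67.0%, 62.9% and 78.4% in controls. Wnt9a made up 11.6%, 36.9% and 6.99% in co-culture and 9.68%, 8.17% and 3.59% in controls, so in co-culture replicate 2 it took a larger share than Wnt1. In the cocktail experiment the 4 ligands with a row (Wnt2b included) reached 29.2, 31.7 and 26.3 FPKM with cocktail and 105.5, 100.3 and 97.4 FPKM in controls. Wnt1 made up 89.8% to 91.6% of that sum with cocktail and 94.6% to 95.8% in controls.

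Within a library, the ratio of 2 ligands does not depend on how libraries are scaled. Wnt8b stood at 3.39%, 3.62% and 3.98% of the Wnt1 level in the cocktail libraries, against 0.408%, 0.547% and 0.554% in the controls. The means were 3.66% ± 0.297 with cocktail and 0.503% ± 0.082 in controls (SD, n = 3 each), 7.28-fold higher with cocktail and with no overlap. Wnt10b stood at 5.28%, 5.66% and 5.96% of Wnt1 with cocktail, against 4.53%, 3.28% and 3.32% in controls, 1.52-fold higher on the means. Wnt10b was therefore lower with cocktail by a smaller factor than its neighbour Wnt1. A higher ratio to Wnt1 was common: it held without overlap for 73.9% of the other 632 genes, whose median ratio was 8.12-fold higher with cocktail, so the value of Wnt8b lies near that of the table.

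**Figure D3:**
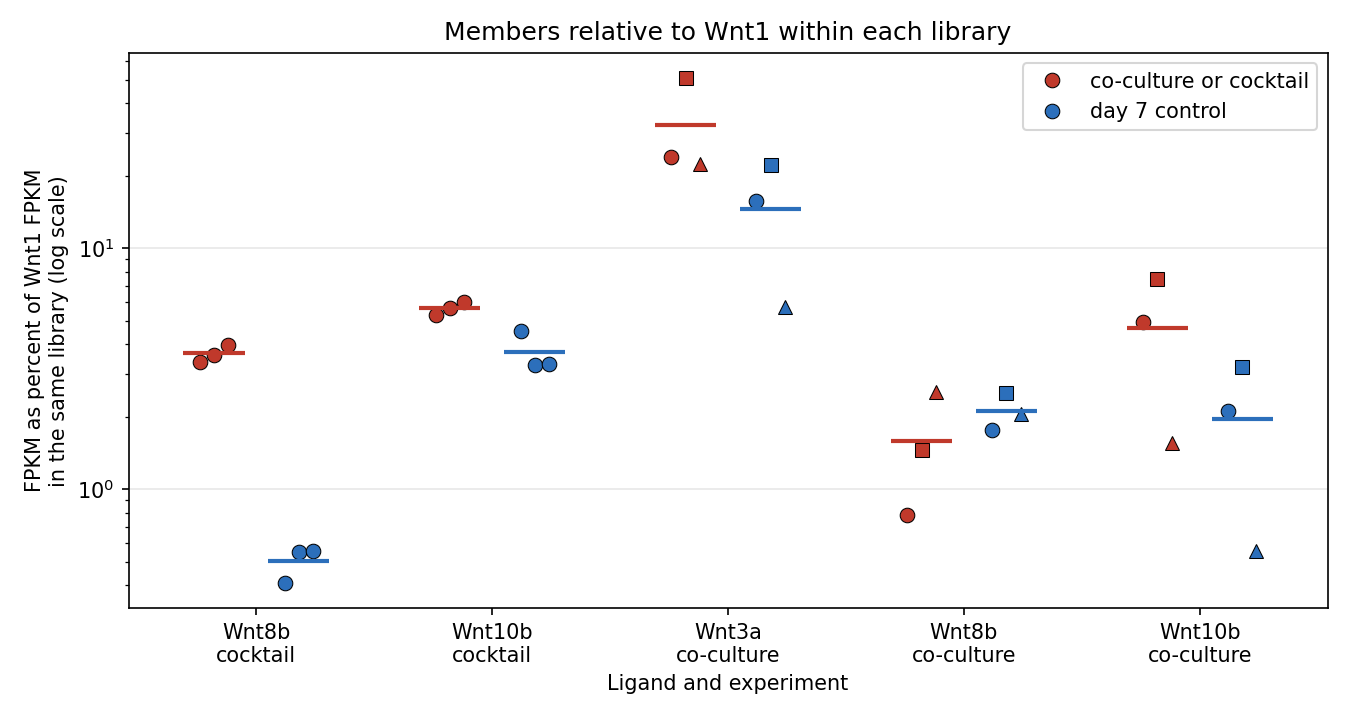
Level of Wnt8b, Wnt10b and Wnt3a as a percentage of the Wnt1 level in the same library, on a log axis, with treated libraries in red left of controls in blue, lines at the means and marker shapes giving co-culture replicate numbers. The cocktail libraries lie above their controls for Wnt8b and Wnt10b without overlap, and the co-culture groups overlap for Wnt8b and Wnt10b.

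As the plot of ratios to Wnt1 shows, Wnt10b was again higher relative to Wnt1 in each co-culture pair, while Wnt8b was not. Wnt3a stood at 23.9%, 50.7% and 22.3% of Wnt1 in co-culture replicates 1, 2 and 3, against 15.7%, 22.1% and 5.71% in control replicates 1, 2 and 3. Every co-culture library was above every control, by a narrow margin for replicate 3. The ratio to Wnt1 was higher without overlap for 56.9% of the 545 genes other than Wnt1. Their median ratio was 20.7-fold higher in co-culture, against 2.22-fold for Wnt3a and 2.38-fold for Wnt10b on the means. Wnt10b stood at 4.96%, 7.47% and 1.56% in co-culture and 2.11%, 3.21% and 0.556% in controls, higher in each pair although the groups overlap. Wnt8b stood at 0.785%, 1.45% and 2.52% in co-culture and 1.77%, 2.51% and 2.05% in controls, lower in pairs 1 and 2 and higher in pair 3.

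The order of levels differed between experiments in 1 place. Wnt1 was above Wnt3a in each of the 6 co-culture and control libraries, and Wnt3a was above both Wnt8b and Wnt10b. Wnt8b and Wnt10b were neighbours that could not be ordered: Wnt10b was above Wnt8b in co-culture replicates 1 and 2 and in control replicates 1 and 2, and below it in both replicates numbered 3. In the cocktail experiment, the order was Wnt1, Wnt10b, Wnt8b in all 6 libraries. The 2 tables were normalized separately, so levels were not compared between them.

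Around the ligands, 94 further genes of the Wnt pathway were listed, of which 10 had a row in the cocktail table, 7 lower and 3 higher with cocktail by limma, as every gene of that table passed the test. Wnt2b, the remaining ligand there, was lower at 0.137, 0.373 and 0.322 FPKM with cocktail and 0.802, 0.924 and 0.517 FPKM in controls. Of the receptors, Ror1, a Wnt5a receptor, was lower at 2.98, 2.92 and 2.20 FPKM with cocktail and 11.6, 10.4 and 12.5 FPKM in controls, a log2(FPKM + 1) difference of -1.76. Rspo4, an R-spondin that potentiates Wnt signalling, averaged 0.324 FPKM with cocktail and 0.984 FPKM in controls. The secreted antagonists split. Sost, which binds Lrp5 and Lrp6, was lower (log2 difference -1.60), and Dkk3, a divergent Dickkopf protein, was higher (2.47), at 18.7, 20.9 and 13.6 FPKM with cocktail and 2.23, 2.02 and 2.80 FPKM in controls.

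The intracellular and target genes split as well. Dact2, a Dishevelled-binding modulator, was lower (log2 difference -1.95), at 1.33, 2.27 and 2.70 FPKM with cocktail and 13.0, 11.96 and 7.95 FPKM in controls. Tcf7, a Tcf/Lef transcription factor, was higher (1.30), at 91.7, 104.3 and 120.3 FPKM with cocktail and 42.5, 42.0 and 41.5 FPKM in controls, but was lower after quantile normalization (-0.81) and with FPKM scaled to the table's sum (-0.48). Of the target list, Myc (-1.34) and Cdx2 (-0.63) were lower, and Sp8 (0.59), a zinc finger factor, was higher together with Tcf7, although it turned to -0.54 when scaled to the table's sum. Dkk3 kept its direction under those scalings, as did the 7 lower genes.

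Genes of the roof plate, where Wnt1 and Wnt3a are expressed in the embryo, were listed too. Of 15 roof plate and BMP genes, 7 had a row and all 7 were lower with cocktail by limma (median log2 difference -1.28, against 0.57 over all genes), also after quantile normalization and after scaling to the table's sum. Of all 633 genes, which were selected on this contrast, 42.7% were called lower. Among them, Lmx1a (-1.62), the roof plate determinant, stood at 7.69, 9.82 and 7.996 FPKM with cocktail and 29.6, 28.7 and 26.3 FPKM in controls. Gdf7 (-1.28), a BMP ligand that marks the roof plate, stood at 26.1, 31.4 and 22.8 FPKM with cocktail and 70.7, 59.8 and 67.0 FPKM in controls, and the BMP ligand Bmp7 (-1.38) at 12.2, 15.9 and 15.1 FPKM with cocktail and 41.3, 39.6 and 35.8 FPKM in controls. Wnt1 and Wnt10b were thus lower beside roof plate genes. Whether one bears on the other was not tested.

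Of 16 dorsal progenitor genes, 4 had a row and all 4 were higher with cocktail by limma, as were 57.3% of all 633 genes. Irx3 (1.44), Gsx2 (1.37) and Neurog1 (1.01), transcription factors of dorsal and intermediate progenitors, were among them. After quantile normalization 1 of the 4 was called higher and Neurog1 turned to -0.66. After scaling to the table's sum 0 of the 4 were called higher by limma, with Gsx2 at 0.44, Irx3 at -0.30 and Neurog1 at -0.74. Both midbrain-hindbrain boundary genes with a row, En2 (1.32) and Sp8, were higher, and both turned lower when scaled to the table's sum. Both genes of the cortical hem and dorsal telencephalon list with a row, Lhx2 (-1.05) and Dmrta1 (-0.65), were lower, whereas Wnt8b, also known from that region, was higher except under scaling to the table's sum.

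**Figure D4:**
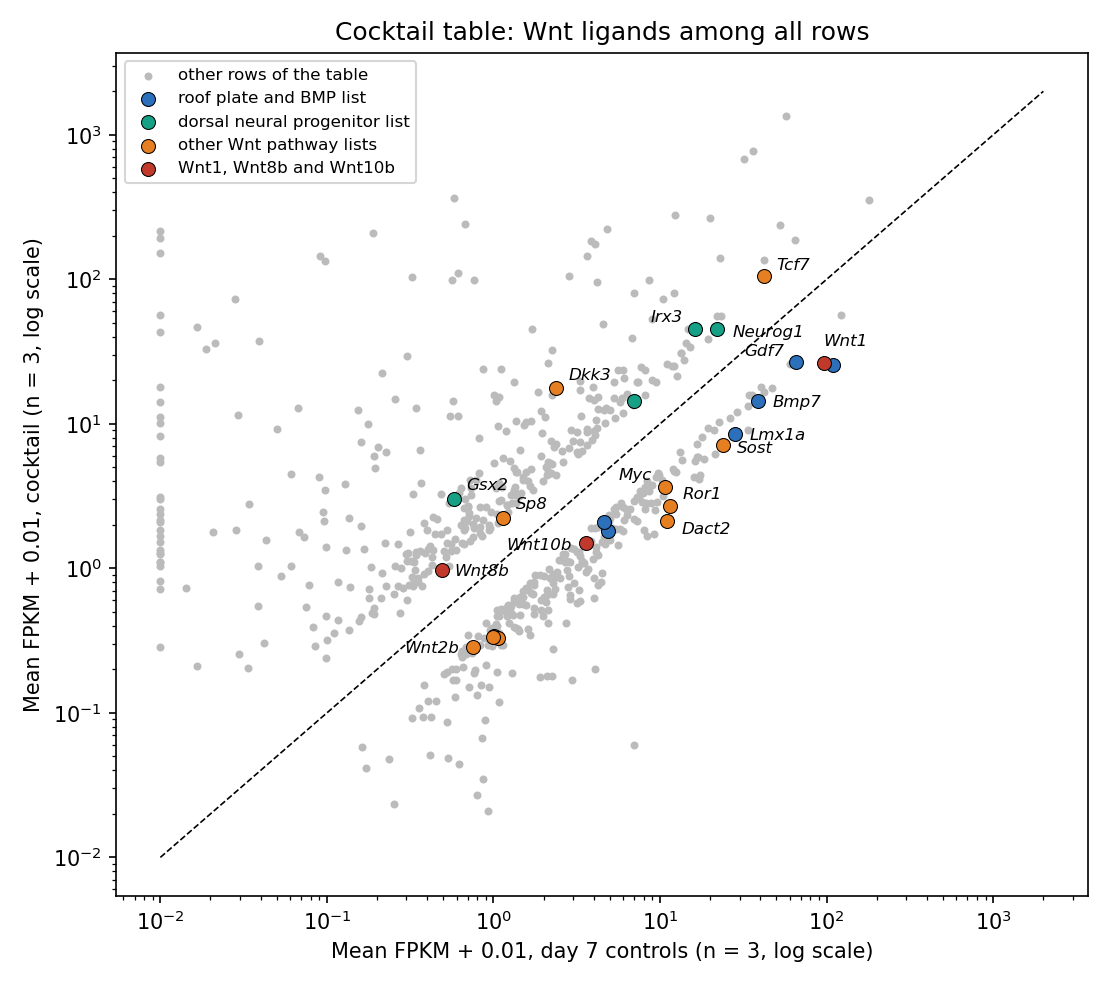
Mean FPKM plus 0.01 of each of the 633 cocktail table genes, with controls on the x axis and cocktail on the y axis (n = 3 each, log axes), coloured by list. Wnt1 and Wnt10b lie below the dashed line of equal level among the 7 roof plate and BMP genes, and Wnt8b lies above it, a side it leaves when FPKM are scaled to the table's sum.

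Markers of other cell types moved with these results. In the cocktail table, Twist1 (1 of 9 neural crest markers with a row) summed to 5.32 to 6.85 FPKM with cocktail and 19.9 to 22.8 FPKM in controls. Tfap2c (1 of 14 ectoderm markers) stood at 3.73 to 4.60 FPKM with cocktail and 16.6 to 17.4 FPKM in controls. Of 10 mesenchyme markers 4 had a row, which summed to 7.06 to 8.52 FPKM with cocktail and 21.5 to 24.6 FPKM in controls, mostly Twist1, which is on both lists. Of these, Twist1, Pdgfra and Col3a1 fell by limma, and Acta2 rose (mean 1.11 FPKM with cocktail and 0.291 FPKM in controls). Kdr (1 of 5 endothelial markers) stood at 1.42 to 1.75 FPKM with cocktail and 4.44 to 5.76 FPKM in controls. None of these was at 0 in any library, and their part in the ligands' values was not tested.

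In the co-culture table the markers set replicate 2 apart. The 4 of 14 ectoderm markers with a row (Krt19, Grhl3, Perp and Gata3) summed to 35.5, 193.8 and 16.3 FPKM in co-culture replicates 1, 2 and 3, against 8.47 to 9.64 FPKM in controls. The 3 of 10 mesenchyme markers (Col3a1, Tagln and Acta2) summed to 26.7, 266.4 and 1.43 FPKM in co-culture, against 1.55 to 8.51 FPKM in controls, with Acta2 at 0 in both replicates numbered 3. The 3 of 5 endothelial markers summed to 10.2, 42.1 and 1.65 FPKM in co-culture and 0.792 to 3.89 FPKM in controls, and the 2 of 9 neural crest markers to 27.1, 45.8 and 5.44 FPKM in co-culture and 2.39 to 9.08 FPKM in controls. These 2 differed: Ets1, which is also expressed in endothelium, stood at 24.2, 45.5 and 3.26 FPKM in co-culture and 4.86, 4.08 and 0.797 FPKM in controls. Sox10 stood at 2.92, 0.291 and 2.18 FPKM in co-culture and 1.17, 4.99 and 1.59 FPKM in controls, lower in pair 2 only. The 2 of 10 neural progenitor markers (Hes5 and Fabp7) went the other way in pairs 1 and 2. They summed to 49.8, 25.8 and 269.2 FPKM in co-culture and 154.6, 273.6 and 181.5 FPKM in controls. Both are among the genes halved in pairs 1 and 2, and both were higher in co-culture in pair 3. The library with the lowest Wnt1, Wnt3a, Wnt8b and Wnt10b thus had the highest ectoderm, mesenchyme and endothelial marker sums. Most of each sum there came from 1 gene: Krt19 (154.3 FPKM), Tagln (239.9 FPKM) and Kdr (32.6 FPKM). Grhl3 was lower in co-culture replicate 2 (1.17 FPKM) than in replicate 1 (1.87 FPKM). High values in replicate 2 were common in this selected table, whose median log2 ratio was 1.32, 1.94 and 0.39 in pairs 1, 2 and 3. The part of these markers in the ligands' values was not tested.

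Readouts of Wnt signalling in the co-culture table were few. Of the same 94 Wnt pathway genes, 10 had a row, 3 of them lower in all 3 pairs (Wnt3, Axin2 and Sost) and 3 higher in all 3 pairs (Wnt5a, Wnt9a and Wnt11). By limma, none of the 9 that entered the test was called, with or without the replicate block. Axin2, the common readout of beta-catenin signalling, stood at 50.02, 14.5 and 28.6 FPKM in co-culture replicates 1, 2 and 3, against 60.2, 26.4 and 33.6 FPKM in control replicates 1, 2 and 3. Its ratio was lowest in pair 2 at 0.549, and 0.831 and 0.851 in pairs 1 and 3. Sost differed by little in pair 3, where it stood at 1.184 FPKM in co-culture and 1.185 FPKM in the control. Of the roof plate and BMP list 3 genes had a row, and by limma 0 of the 2 that entered the test were called, with or without the replicate block. Msx3, a dorsal neural tube gene, was lower in all 3 pairs, at 17.5, 6.30 and 78.8 FPKM in co-culture and 49.5, 41.8 and 121.1 FPKM in controls. Bmp5 was too, at 0.569, 0.0548 and 0.481 FPKM in co-culture and 1.39, 0.917 and 0.594 FPKM in controls. Bmp7 was higher in pair 1 and slightly lower in pairs 2 and 3, at 56.1, 31.7 and 20.8 FPKM in co-culture and 34.4, 34.6 and 22.3 FPKM in controls.

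Genes with patterns most like each ligand were found by the distance between log2(FPKM + 1) values over the 6 libraries of a table, after taking off each gene's mean. In the cocktail table the 5 nearest to Wnt1 were Ror1, Nptx2, Twist1, Sost and Colec12 (distances 0.247 to 0.299). The nearest to Wnt8b were Osmr, Slc47a1, Plcl1, Slc37a2 and Nos1 (0.101 to 0.163), and to Wnt10b Enpep, Sgk2, Ecm2, Slc13a4 and Klhdc7a (0.112 to 0.178). The added 1 shrinks changes at low FPKM, so near genes need not share a fold. Enpep stood at 0, 0.0515 and 0 FPKM with cocktail and 1.11, 0.668 and 0.582 FPKM in controls. Osmr stood at 0.467, 0.443 and 0.458 FPKM with cocktail and 0.0289, 0.0968 and 0.141 FPKM in controls. Neither Wnt1 nor Wnt10b was among the other's nearest: Wnt10b ranked 137th from Wnt1, at a distance of 1.22. That rank depends on the added 1 as well. In the co-culture table, where this measure was added after its values were seen, Wnt3a and Wnt10b were each other's nearest of 545 other genes, at a distance of 1.00. The 5 nearest to Wnt1 there were Tox, Fgf15, Hes5, Katnal2 and Wnt3 (1.68 to 2.15), and the 5 nearest to Wnt8b were Agbl3, Eef1akmt2, Olfml2b, Ptpn5 and Katnal2 (0.398 to 0.586).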

How the data were processed

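Poly(A) RNA-seq was measured in 12 libraries, 4 groups of 3. Reads were aligned with HISAT2 to GRCm38, per the submitters' processing notes. Their versions, the quantifier and its annotation: not given in the sources used here. Per the file headers, the authors deposited FPKM, a log2 fold change and an adjusted p-value (FDR) for 633 cocktail genes (1 row without an identifier was left out, and 39 genes are new transcripts without a symbol). The deposited co-culture values for 546 genes were read as FPKM by inference. The cocktail columns name the group and no sample title, so only 1 measure, FPKM, was used, as unnumbered replicates. In all, 12 columns of values were left unused: 6 of fragments per gene and 6 with numbers for names. Fits to the fragments per gene, which had been intended and were made first, were dropped for this reason and replaced by limma on FPKM. Symbols came from GENCODE M21 and promoters from RefSeq (4 of 4 ligands matched).

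Each table was fitted alone with limma 3.58.1 (R 4.3.3) with trend on log2(FPKM + 1), over all cocktail genes and over co-culture genes averaging 1 FPKM or more in at least 1 group. P-values were Benjamini-Hochberg adjusted over all genes tested, with a threshold of 0.05. They describe the spread among these libraries alone, which could be technical. On simulated data with 200 changed genes, the test over 633 cocktail genes recovered 97.2% of changes of size 1 and 100% of size 2 (log2), and called 2.77% of the genes left unchanged. For 425 co-culture genes the matching shares were 21.7% and 72.2%, and 0.889% of unchanged genes were called. The simulated noise was independent between genes, and changes went up or down with equal odds. The deposited tables were selected for change, so these rates need not hold for them.

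Deviations from the group means correlated at 0.606, 0.143 and 0.256 between same-numbered co-culture and control libraries, against at most 0.0419 between other numbers, so the numbers were treated as pairs by a rule of 0.1. The genes appear to be selected on pairs 1 and 2, which bears on this check. The ligands, the 17 gene lists (200 genes) and the tests were chosen with earlier results of these data known. The named genes are the 4 ligands, other Wnt ligands, Wnt pathway genes with a row, up to 4 genes of each other list by largest log2 difference, and the 5 nearest genes. Some genes this rule covers are not reported here. Alternatives covered pseudocounts of 1 and 0.1, filters, quantile normalization, scaling to the table's sum, the replicate block and leaving out libraries.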

Additional observations from a re-analysis of the deposited data

Results flagged for a closer look

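Wnt8b moved in opposite directions in the experiments. Every cocktail library was above every control of that experiment, 1.99-fold on the mean FPKM, and every co-culture library was below every control of the other. The difference between the experiments was not tested. The cocktail direction turns when FPKM are scaled to the sum of the table, which covers selected genes only and is not a depth.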

How the results depend on the processing

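In the cocktail experiment, Wnt1 and Wnt10b kept their direction under every alternative reported. The log2 difference of Wnt1 was -3.34 after quantile normalization and -3.60 with FPKM scaled to the sum of the table (chosen after seeing the data). That of Wnt10b was -1.20 with a pseudocount of 0.1, -1.33 after quantile normalization and -2.19 with the table's sum. That of Wnt8b was 0.87 with a pseudocount of 0.1, 0.14 after quantile normalization and -0.36 with the table's sum, and a minimum mean of 1 FPKM (chosen after seeing the data) removed the gene. The median of all genes was 0.57 as reported, 0.13 after quantile normalization and -0.47 with the table's sum. Called genes split into 363 higher and 270 lower as reported, 263 higher and 281 lower after quantile normalization, and 145 higher and 355 lower with the table's sum. Leaving out single libraries gave -1.90 to -1.76 for Wnt1, -0.95 to -0.73 for Wnt10b, 0.37 to 0.42 for Wnt8b and 631 to 633 called genes. Results from fragments per gene (their sum as library size, TMM, DESeq2, a minimum number, and ligand shares) are not reported, since those columns were left unused.

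In the co-culture experiment, 0 genes were called without the replicate block and 39 with it. Leaving out both libraries numbered 2 (chosen after seeing the data) gave 2 with the block and 0 without it, and leaving out both numbered 3 gave 0 with the block and 2 without it. Leaving out single libraries gave 0 to 330 called genes, with 330 without co-culture replicate 3 and 1 without control replicate 1. Without both libraries numbered 2, the difference of Wnt3a turned to 0.71 and that of Wnt10b to 0.57, with or without the block. Wnt8b was at -1.84 with a pseudocount of 0.1. Without single libraries, Wnt1 was at -2.30 to -0.42, Wnt8b at -1.30 to -0.64, Wnt3a at -0.87 to 0.42 and Wnt10b at -0.78 to 0.30. The block changed no direction among the ligands. The cause of these changes was not tested. With 3 libraries a group, precision is limited. Depth was not analysed.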

Other observations

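Near Wnt1 and Wnt10b, 39 protein-coding genes lie within 500 kb on either side, of which 4 have a row in the cocktail table: the 2 ligands, Ddn and Prph. Ddn, which encodes the postsynaptic protein dendrin, was lower like the ligands, at 2.07, 1.97 and 1.17 FPKM with cocktail and 4.56, 5.26 and 5.24 FPKM in controls (log2 difference -1.15). Prph, which encodes peripherin, an intermediate filament of neurons, was higher, at 16.4, 17.4 and 13.6 FPKM with cocktail and 1.23, 1.07 and 0.696 FPKM in controls (log2 difference 3.07). Genes of this region with a row therefore did not share 1 direction. Of these genes, 4 have a row in the co-culture table: the 2 ligands, Gm49450 and Ccdc65. Gm49450 stood at 24.7 and 51.7 FPKM in co-culture replicates 1 and 2 and was listed at 0 in co-culture replicate 3 and all 3 controls. Ccdc65, a cilium gene, was lower in all 3 pairs, at 0.702, 0.132 and 1.04 FPKM in co-culture and 1.45, 1.06 and 2.36 FPKM in controls. Ddn, Prph, Gm49450 and Ccdc65 were chosen for their position.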
